A study of Solenopsis invicta with 64 samples.

Results

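The 83 genes described here were chosen by their measured levels in the ovary of fire ant gynes (Solenopsis invicta), out of 15512 genes with LOC symbols. A level is a CPM value, the gene's count times 1000000 over the total of its library. A gene was taken when each of the 8 ovaries of polygyne Sb/Sb gynes lay above each of 15 ovaries of SB/SB gynes, when the mean of those 15 was at least 1 CPM, and when the Sb/Sb mean was 2 to 20 times that mean. Genes in 5 runs of neighbouring LOC numbers were left out, 190 genes in all. Outside those runs 9424 genes reached 1 CPM, and 105 of them were separated without overlap, 19 with a ratio under 2 and 3 with a ratio over 20. A further 927 met the level and the ratio, but their groups overlapped.

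SB and Sb are alternative forms of a supergene on chromosome 16, a block of genes that is inherited as a unit because inversions keep the forms from recombining. Colonies of SB/SB queens are monogyne, with a single egg-laying queen, while polygyne colonies have several queens and carry Sb. Sb/Sb gynes seldom become egg-laying queens in nature. The ant ovary holds germ cells, each oocyte fed by nurse cells, within a sheath of follicle cells.

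The animals were winged, unmated, reproductively mature gynes that were caught in the field as they left to mate. Each gave a single brain and a single ovary, sequenced as separate Smart-seq2 libraries. In each tissue there were 8 libraries of monogyne SB/SB, 8 of polygyne SB/SB, 8 of polygyne SB/Sb and 8 of polygyne Sb/Sb gynes. No monogyne animal carried Sb, and no agent or other allele is given in the labels. Whether the animals of a group came from separate colonies is not stated, so p-values measure the spread between these animals. Since whole organs were measured, fewer cells of a type and less RNA per cell cannot be told apart.

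Ovary libraries held 10.1 to 22.6 M counts (M for 1000000) and brain libraries 9.46 to 26.9 M. The exception was 104D, a polygyne SB/SB ovary with 73573 counts. That ovary had a count for 9 of the 83 genes and was left out, which leaves 7 polygyne SB/SB ovaries. LOC105200757 encodes the vitellogenin receptor, through which oocytes take up yolk protein. It stood at 11.5 to 703 CPM in the ovary against 0 to 15.0 CPM in the brain. The ranges overlapped through ovary 19G, at 11.5 CPM, and the other ovaries used were above all brains. The odorant-binding protein gene LOC105203994 marked the brain at 776 to 2515 CPM against 0.607 to 6.50 CPM in the ovary. Brains 1E, 16C and 16D correlated least with the other brains, and in brain 30A the 10 most abundant genes held 43.8% of the counts. In the ovary of 19G they held 18.4%.

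Of the 83 genes, 70 were found in the gene table of the assembly UNIL_Sinv_3.0. These were 61 protein-coding genes, 8 long non-coding RNA genes and 1 pseudogene. Long non-coding RNA genes made up 9.64% of the 83 genes and 0.934% of the 9424 genes at the same minimum. The table gave none of the 83 a name other than its LOC number, so no function is assigned to them here. A chromosome was given for 69. Chromosome 16, which holds the supergene, had 16 of them, 23.2% of those placed, against 7.70% of the placed genes at the same minimum. Among all genes separated without overlap the share was 25.8%. The other 53 lay on 14 of the other 15 chromosomes, with 6 each on chromosomes 2 and 14 and none on chromosome 13.

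Placed members were mostly scattered. In the order of that assembly, LOC105193219 and LOC105193220 on chromosome 16 had 1 gene between them, as did LOC105193825 and LOC105193872. LOC105198878 and LOC105201316 on chromosome 15 had 2 genes between them. LOC105198876, with a LOC number close to that of LOC105198878, lay on chromosome 15 too. LOC105199588 on chromosome 8 and the unplaced LOC105199589 had consecutive numbers. Whether such pairs are copies that share reads cannot be told from the counts, and their levels are uncertain to that extent.

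In the ovary the Sb/Sb mean was 3.14 times the SB/SB mean at the median gene, with ratios from 2.04 to 14.6. These ratios were selected on and describe the choice. In 15 genes the ratio was 5 or more, and in 68 it was lower. The median level of the 83 genes in SB/SB ovaries was 4.63 CPM, against 45.2 CPM for the 9424 genes at the same minimum, so the group was drawn mainly from genes of low level in the SB/SB ovary. The median ratio was 3.002 on chromosome 16, 3.09 on chromosomes 1 to 15 and 3.29 among unplaced genes. In edgeR's quasi-likelihood fit the 83 genes were all called higher in Sb/Sb than in polygyne SB/SB ovaries, beside 8.21% of all genes tested. Nothing is read from that count, since the choice used the contrast.

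**Figure D1:**
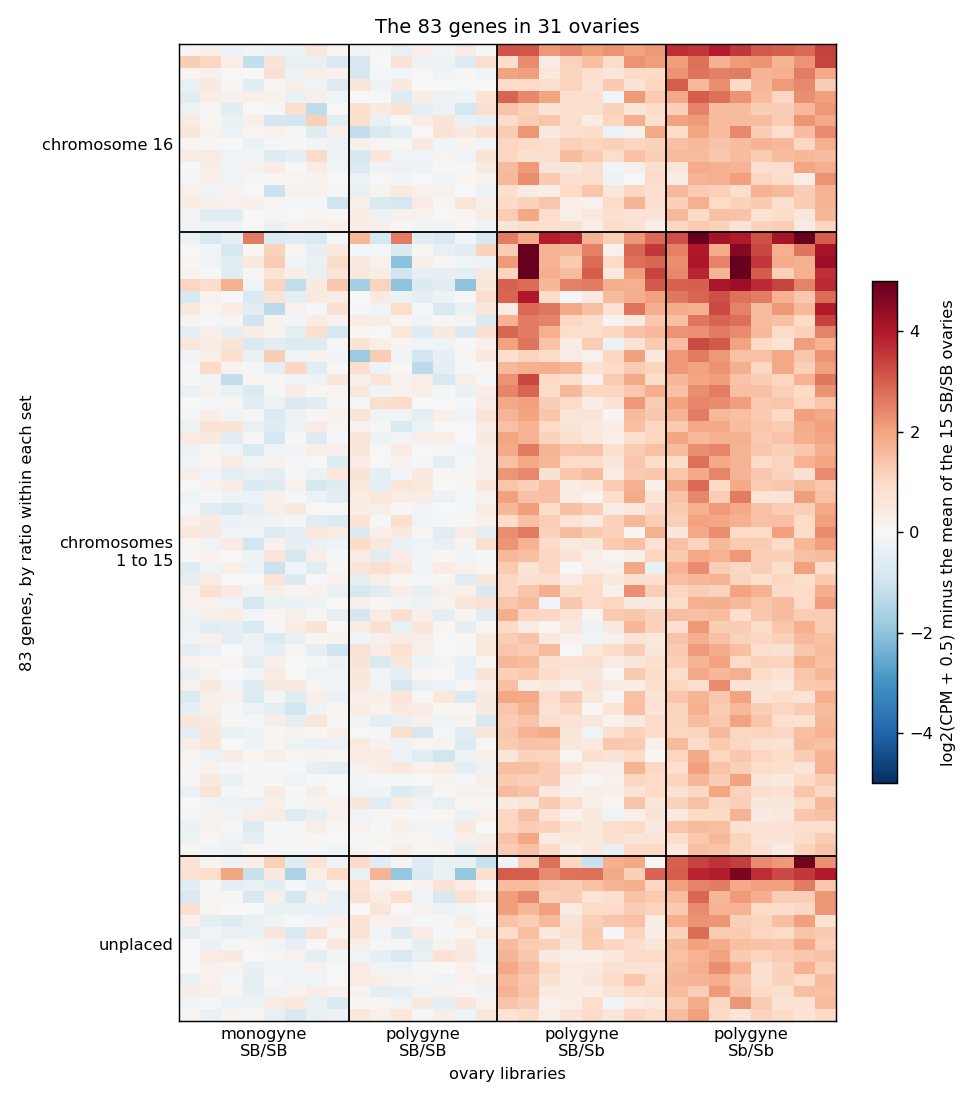
Levels of the 83 genes (rows) in 31 ovaries (columns), as log2(CPM + 0.5) minus the mean of the 15 SB/SB ovaries, with genes in the order of their ratio within chromosome 16, chromosomes 1 to 15 and the unplaced set. SB/Sb ovaries lie between the homozygotes, and a few genes on chromosomes 1 to 15 are far higher in single SB/Sb and Sb/Sb ovaries.

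LOC105193825 on chromosome 16 had the widest gap of the 83 genes: its lowest Sb/Sb ovary was 5.44 times its highest SB/SB ovary. It measured 2.31 to 4.65 CPM in the 15 SB/SB ovaries (median 2.95), 14.2 to 31.5 CPM in SB/Sb (median 16.2) and 25.3 to 53.7 CPM in Sb/Sb (median 39.7). All SB/Sb ovaries were above all SB/SB ovaries, and SB/Sb overlapped Sb/Sb. The Sb/Sb mean of 37.9 ± 9.69 CPM (SD, n = 8) was 11.96 times the SB/SB mean of 3.17 ± 0.727 CPM (SD, n = 15).

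The highest ratio, 14.6, belonged to LOC105198590 on chromosome 5. Its SB/SB ovaries ranged from 0.258 to 7.38 CPM (median 0.408), its SB/Sb ovaries from 2.501 to 19.8 CPM (median 6.42) and its Sb/Sb ovaries from 10.4 to 41.6 CPM (median 21.5). The SB/SB group had a high ovary, 232A of the monogyne form, and without it the ratio was 19.9. LOC105201057, unplaced, came next with 13.5: 0.155 to 2.73 CPM in SB/SB (median 0.769), 0.157 to 9.14 CPM in SB/Sb (median 2.73) and 5.84 to 39.96 CPM in Sb/Sb (median 12.5). SB/Sb ovaries of this gene spanned the range from the lowest SB/SB ovaries into the Sb/Sb group. Without Sb/Sb ovary 104G, which stood at 39.96 CPM, its ratio was 10.1.

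Of the 5 members on chromosome 15, the 3 with the highest ratios shared their high ovaries. LOC105201316 measured 1.85 to 22.7 CPM in SB/SB ovaries (median 9.46), 18.8 to 582 CPM in SB/Sb (median 53.4) and 32.7 to 387 CPM in Sb/Sb (median 82.9). LOC105198876 measured 0.924 to 3.88 CPM in SB/SB (median 2.29), 3.31 to 172 CPM in SB/Sb (median 10.1) and 5.74 to 102 CPM in Sb/Sb (median 17.7). LOC105198878 measured 0.601 to 3.76 CPM in SB/SB (median 1.36), 1.69 to 92.0 CPM in SB/Sb (median 8.08) and 6.04 to 46.1 CPM in Sb/Sb (median 15.3). In each of the 3 genes the highest SB/Sb value came from ovary 15A, above every Sb/Sb ovary of that gene. The ratio of LOC105198876 was 12.3 with all ovaries and 7.85 without Sb/Sb ovary 19G, and that of LOC105201316 was 12.4 and 8.74. The other 2 members on chromosome 15 were LOC105207726, which averaged 1.08 CPM in SB/SB and 8.60 CPM in Sb/Sb ovaries, and LOC105197136, which averaged 1.68 and 5.20 CPM.

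LOC105199589 and LOC105199588 were near or at 0 in some SB/SB ovaries, with no count in 2 polygyne ovaries each. LOC105199589 ranged from 0 to 6.66 CPM in SB/SB (median 1.84), from 3.71 to 14.4 CPM in SB/Sb (median 11.8) and from 14.4 to 47.7 CPM in Sb/Sb (median 24.1). It was the single gene of the 83 whose SB/Sb ovaries were all below its Sb/Sb ovaries. The Sb/Sb side had been chosen to be high and no share over all genes is given, so this is a description. LOC105199588 ranged from 0 to 6.39 CPM in SB/SB (median 2.25), from 5.83 to 16.4 CPM in SB/Sb (median 11.2) and from 10.5 to 37.9 CPM in Sb/Sb (median 22.9).

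The 6 most abundant members in SB/SB ovaries had smaller ratios, from 2.09 to 3.09. LOC105194996 on chromosome 2 was the highest, at 705 CPM in SB/SB, 1347 CPM in SB/Sb and 1482 CPM in Sb/Sb ovaries on average. LOC105193219, a long non-coding RNA gene on chromosome 16, averaged 249, 492 and 695 CPM in the same order, and its near neighbour LOC105193220 averaged 88.4, 182 and 273 CPM. LOC105197020 on chromosome 8 (217 CPM in SB/SB), the unplaced LOC105207352 (49.4 CPM) and LOC105193135 on chromosome 16 (39.95 CPM) were the others. Wide gaps were also found at lower levels: the lowest Sb/Sb ovary was 1.996 times the highest SB/SB ovary for LOC105204917, a long non-coding RNA gene on chromosome 16, 1.75 times for LOC105203141 on chromosome 9 and 1.72 times for LOC105208198 on chromosome 14.

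The lower limits of ratio and level cut through a continuous range. Just inside a ratio of 2 were LOC105199289 (2.04), LOC105197020 (2.09) and LOC105194996 (2.10), and just outside it LOC105200807 (1.98), LOC105201127 (1.97) and LOC105203131 (1.96). At the upper limit there was a gap. Above 20 lay LOC105198306 (20.2) and LOC105205458 (29.7), and the nearest below were LOC105198590 (14.6) and LOC105201057 (13.5). LOC105199266 (0.818 CPM) and LOC105197529 (0.769 CPM) missed the minimum of 1 CPM, while LOC105201057 and LOC105207726 (both 1.08 CPM) just met it.

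SB/Sb ovaries took no part in the choice, and in them the 83 genes stood between the homozygotes, nearer to Sb/Sb. On a log2 scale on which the SB/SB mean is 0 and the Sb/Sb mean is 1, the median place of the SB/Sb mean was 0.69, with quartiles of 0.63 and 0.80. It was above 0.5 in 78 of 83 genes and above 1 in 2. The SB/Sb mean exceeded the highest SB/SB ovary in 80 genes and lay below the lowest Sb/Sb ovary in 24. Both of those limits were selected on and no share over all genes was computed, so these counts only describe the choice. The extremes were LOC105201057 (0.42), LOC105199093 (0.47) and LOC105197382 (0.48) at the low end and LOC105192978 (1.00), LOC105201935 (1.00) and LOC105198876 (1.04) at the high end. Both homozygote means were selected on, so the place is a description. For LOC105198876 it rests on 1 library, since the place was 0.66 without ovary 15A, and for LOC105198878 it was 0.98 with that ovary and 0.68 without it.

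**Figure D2:**
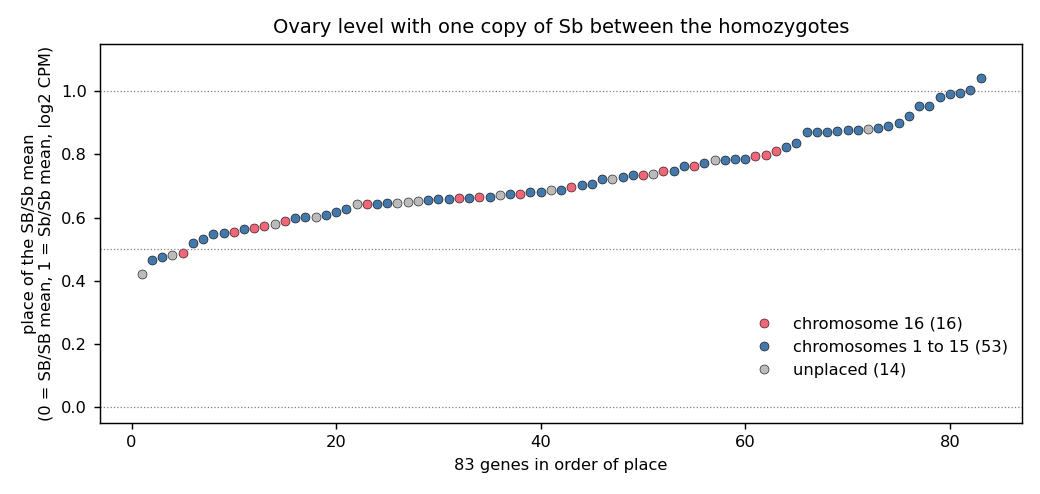
Place of the SB/Sb ovary mean between the SB/SB mean (0) and the Sb/Sb mean (1) on the log2 CPM scale, 1 point per gene, in ascending order and coloured by chromosome. In 78 of 83 genes the point lies above 0.5.

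Between SB/Sb and polygyne SB/SB ovaries, edgeR called 50 of the 83 genes higher and none lower at an adjusted p under 0.05, where 1.53% of all 10797 genes tested were called higher. The SB/SB ovaries had entered the choice, so the count is given as a description. The median log2 change was 1.04 over the 83 genes and -0.01 over all genes, and 83 of 83 were above 0, against 48.7% of all genes. LOC105193825 had the smallest adjusted p (log2 2.59 ± 0.23 SE, adjusted p = 1.97e-08, edgeR), followed by LOC105193135 (log2 0.92 ± 0.12 SE, adjusted p = 1.55e-05, edgeR). With only the 2 groups in the fit the count was 23, beside 0.725% of all genes.

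In 12 of the 83 genes all 8 SB/Sb ovaries lay above all 15 SB/SB ovaries, as they did in 0.276% of the 9424 genes at the same minimum. The 12 were LOC105192978, LOC105193135, LOC105193825, LOC105194062, LOC105194304, LOC105194996, LOC105200597, LOC105201251, LOC105206111, LOC105206944, LOC105207180 and LOC105207352. Of these, 3 were on chromosome 16, 5 on chromosomes 1 to 15 and 4 unplaced. The SB/SB side of this comparison was chosen to be low, which favours such separation.

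Between Sb/Sb and SB/Sb ovaries no member was called by edgeR, beside 0.00926% of all genes called higher, and 37 of 83 (44.6%) had an unadjusted p under 0.05, against 7.02% of all genes. The median log2 difference was 0.48, with 79 of 83 genes above 0 (95.2%, against 51.2% of all genes). DESeq2 called 7 of the 83 higher, beside 0.163% of all genes it tested. The Sb/Sb side had been chosen to be high.

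Polygyne and monogyne SB/SB ovaries differ in social form but share the genotype. No member was called between them by edgeR, while 0.945% of all genes were called higher in polygyne. The median log2 difference over the members was 0.03, and 8 (9.64%) had an unadjusted p under 0.05, against 20.3% of all genes. DESeq2 called 2 higher in polygyne, beside 7.19% of its genes. Both groups stood on the low side of the choice, which limits how far their levels could part.

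The 83 genes were also averaged within each library, where the gap between SB/SB and Sb/Sb ovaries follows from the choice. The mean log2 shift of the 83 genes from their SB/SB mean was -0.21 to 0.21 in the 15 SB/SB ovaries, 0.69 to 1.84 in SB/Sb and 1.29 to 2.11 in Sb/Sb. All SB/Sb ovaries were above all SB/SB ovaries, and SB/Sb overlapped Sb/Sb. SB/Sb ovary 15A was highest in its group for 35 of 83 genes, with 5A highest for 23, and 30A was lowest for 29. In the Sb/Sb group 15G was highest for 28 genes and 30G lowest for 30. The title codes of 15A, 15G, 30A and 30G share the numbers 15 and 30, whose meaning the labels do not give. Such counts were not made over all genes, so a trait of the whole library cannot be told apart.

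Library measures moved with genotype as well. The number of genes with a count was 11347 to 11803 in SB/SB ovaries, 11823 to 12198 in SB/Sb and 11849 to 12539 in Sb/Sb, highest in ovaries 15A and 19G of the last 2 groups, while mean totals were 18.1 M counts in monogyne SB/SB and 15.5 M in Sb/Sb. The brain marker LOC105203994 stood at 0.607 to 3.29 CPM in SB/SB ovaries, 1.98 to 6.03 CPM in SB/Sb and 3.09 to 6.50 CPM in Sb/Sb. The other odorant-binding protein gene in the table, LOC105195107, ranged from 0.322 to 4.07, 1.10 to 15.9 and 1.32 to 18.9 CPM in the same order. The ovary marker LOC105200757 ranged widely in each group, from 44.7 to 663 CPM in SB/SB, 22.4 to 590 CPM in SB/Sb and 11.5 to 703 CPM in Sb/Sb, with its lowest values in 15A and 19G. The part of these measures in the levels of the 83 genes was not tested.

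**Figure D3:**
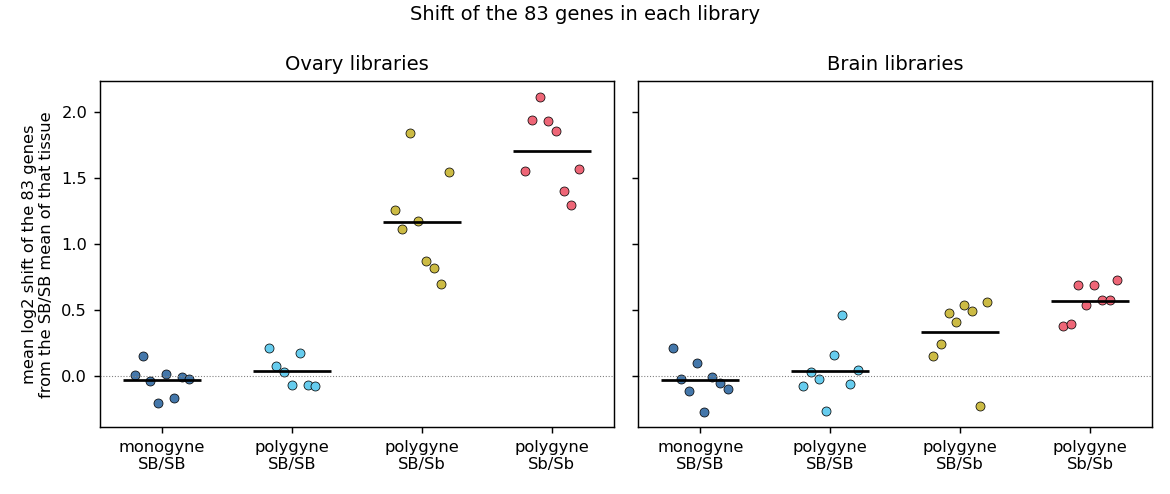
Mean log2 shift of the 83 genes from the SB/SB mean of the same tissue, as log2(CPM + 0.5), 1 point per library with a line at the group mean; the left panel holds 31 ovaries and the right panel 32 brains. The ovary groups SB/SB and Sb/Sb were used to choose the genes. In the brain all Sb/Sb libraries lie between 0.38 and 0.73, and the SB/SB libraries reach 0.46 in polygyne 1E.

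The brain was not used in the choice, although the brains came from the same animals. There the 83 genes ranged from undetected to abundant. In the 16 SB/SB brains 12 genes averaged under 0.1 CPM, 11 averaged 0.1 to 1 CPM and 60 averaged 1 CPM or more. The share under 0.1 CPM was 14.5%, against 2.54% of the 9424 genes at the same ovary minimum. At the other end, 43 of the 83 genes (51.8%) were higher in the SB/SB brain than in the SB/SB ovary, against 36.4% of the 9424. LOC105203141 had no count in any of the 32 brains, which allows a level of up to 0.00488 CPM (3 counts over all brains, counting error only). LOC105208198 and LOC105192978 had 8 and 7 counts in all over the 32 brains. For such genes the change with Sb could be followed in the ovary only.

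The low-count filter passed 66 of the 83 genes in the brain and left 17 untested, and of the 66, LOC105193825 and LOC105198878 passed it only through brains that carried Sb. Between Sb/Sb and polygyne SB/SB brains edgeR called 10 members higher and none lower, 15.2% of those tested, beside 0.607% of all 10704 genes higher and 0.355% lower. The median log2 change was 0.33 over the 66 genes and -0.02 over all genes, and 43 of the 66 were above 0 (65.2%, against 48.5% of all genes). Without LOC105193825 and LOC105198878, 9 of 64 were called higher (14.1%), and the median was 0.29. DESeq2 called 17 higher, beside 1.2% of its genes, and 2 lower, beside 3.95%. The 10 edgeR calls were all among the 17. Also among the 17 were LOC105201251 and LOC105201316, which like LOC105193825 were at or near 0 in polygyne SB/SB brains. For such genes the DESeq2 calls are a description. Against the mean of both SB/SB forms edgeR called 15 higher and none lower, beside 0.85% of all genes called higher. Without LOC105193825 and LOC105198878 it called 14 of 64 higher (21.9%).

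LOC105193135 on chromosome 16 had the smallest p in the brain. It measured 9.68 to 22.7 CPM in SB/SB brains (median 13.9), 16.7 to 52.2 CPM in SB/Sb (median 40.1) and 64.1 to 90.5 CPM in Sb/Sb (median 69.9). All Sb/Sb brains were above all others, and the lowest SB/Sb brain was within the SB/SB range. The log2 change from polygyne SB/SB was 2.42 ± 0.20 SE in Sb/Sb (adjusted p = 1.58e-09, edgeR) and 1.47 in SB/Sb (adjusted p = 3.34e-05, edgeR). It was also the single member called between Sb/Sb and SB/Sb brains (log2 0.95 ± 0.19 SE, adjusted p = 0.0178, edgeR), where 0.00934% of all genes were called higher. In the ovary it measured 31.8 to 54.8 CPM in SB/SB (median 38.8), 73.5 to 91.1 CPM in SB/Sb (median 84.7) and 82.3 to 141 CPM in Sb/Sb (median 120), and its SB/Sb ovaries were all above SB/SB.

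LOC105193825 on chromosome 16 was nearly absent from SB/SB brains. It had 1 count in all over the 8 polygyne SB/SB brains, 317 over the 8 SB/Sb brains and 916 over the 8 Sb/Sb brains. SB/Sb brains held 0.0419 to 4.88 CPM (median 2.29) and Sb/Sb brains 3.04 to 14.5 CPM (median 4.97). All Sb/Sb brains were above all SB/SB brains, of which the highest, in monogyne 222A, held 0.519 CPM. Over the pooled counts the Sb/Sb level was 833 times the polygyne SB/SB level, with an exact 95% interval of 149 to 32952 that covers counting error only. Against all 16 SB/SB brains, which held 19 counts, the pooled ratio was 95.6 (60.9 to 160 by the same method). The gene entered the edgeR test only through the brains with Sb, where it is high, so its calls there (adjusted p = 1.73e-05 in Sb/Sb and 0.000394 in SB/Sb) are a description.

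LOC105206832 on chromosome 1 was abundant in the brain. It ranged from 100 to 235 CPM in SB/SB brains (median 173), from 114 to 324 CPM in SB/Sb (median 243) and from 249 to 434 CPM in Sb/Sb (median 357). Sb/Sb and SB/SB did not overlap, and SB/Sb overlapped both. The log2 change from polygyne SB/SB to Sb/Sb was 1.23 ± 0.16 SE (adjusted p = 3.82e-06, edgeR). In the ovary the same gene measured 20.9 to 55.7 CPM in SB/SB (median 37.6), 41.0 to 98.4 CPM in SB/Sb (median 62.0) and 61.5 to 147 CPM in Sb/Sb (median 94.7).

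LOC105199588 and LOC105199589 rose together in the brain. LOC105199588 ranged from 2.04 to 12.9 CPM in SB/SB brains (median 3.71), from 6.90 to 36.9 CPM in SB/Sb (median 15.6) and from 17.0 to 53.4 CPM in Sb/Sb (median 42.1), with a log2 change from polygyne SB/SB to Sb/Sb of 2.54 ± 0.37 SE (adjusted p = 3.52e-05, edgeR). LOC105199589 ranged from 0.592 to 14.6 CPM in SB/SB (median 3.14), from 6.26 to 32.4 CPM in SB/Sb (median 21.7) and from 15.6 to 55.8 CPM in Sb/Sb (median 35.8), with a log2 change on the same contrast of 2.59 ± 0.44 SE (adjusted p = 0.000391, edgeR). In both genes all Sb/Sb brains were above all SB/SB brains. In SB/Sb brains LOC105199588 was called (log2 1.56, adjusted p = 0.0478, edgeR), and LOC105199589 missed the threshold (log2 1.83, adjusted p = 0.0555, edgeR).

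The unplaced LOC105201057 ranged from 3.82 to 19.4 CPM in SB/SB brains (median 7.79), from 4.87 to 82.9 CPM in SB/Sb (median 9.05) and from 22.7 to 102 CPM in Sb/Sb (median 47.3). Sb/Sb brains were all above SB/SB brains, while the SB/Sb group lay near SB/SB except for brain 16C. The log2 change from polygyne SB/SB to Sb/Sb was 2.80 ± 0.46 SE (adjusted p = 0.000242, edgeR). The other 4 called genes were LOC105199549 (log2 1.11, polygyne means 110.9 CPM without Sb and 243 CPM in Sb/Sb), LOC105199289 (log2 4.26, means 1.67 and 32.2 CPM), LOC105204917 (log2 1.26, means 33.3 and 77.9 CPM) and LOC105207180 (log2 1.21, means 13.98 and 30.97 CPM). The first 3 were on chromosome 16 and LOC105207180 was unplaced. LOC105207180 (adjusted p = 0.0177, edgeR) was no longer called without brain 104G (0.0509) or without brain 15G (0.0512).

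**Figure D4:**
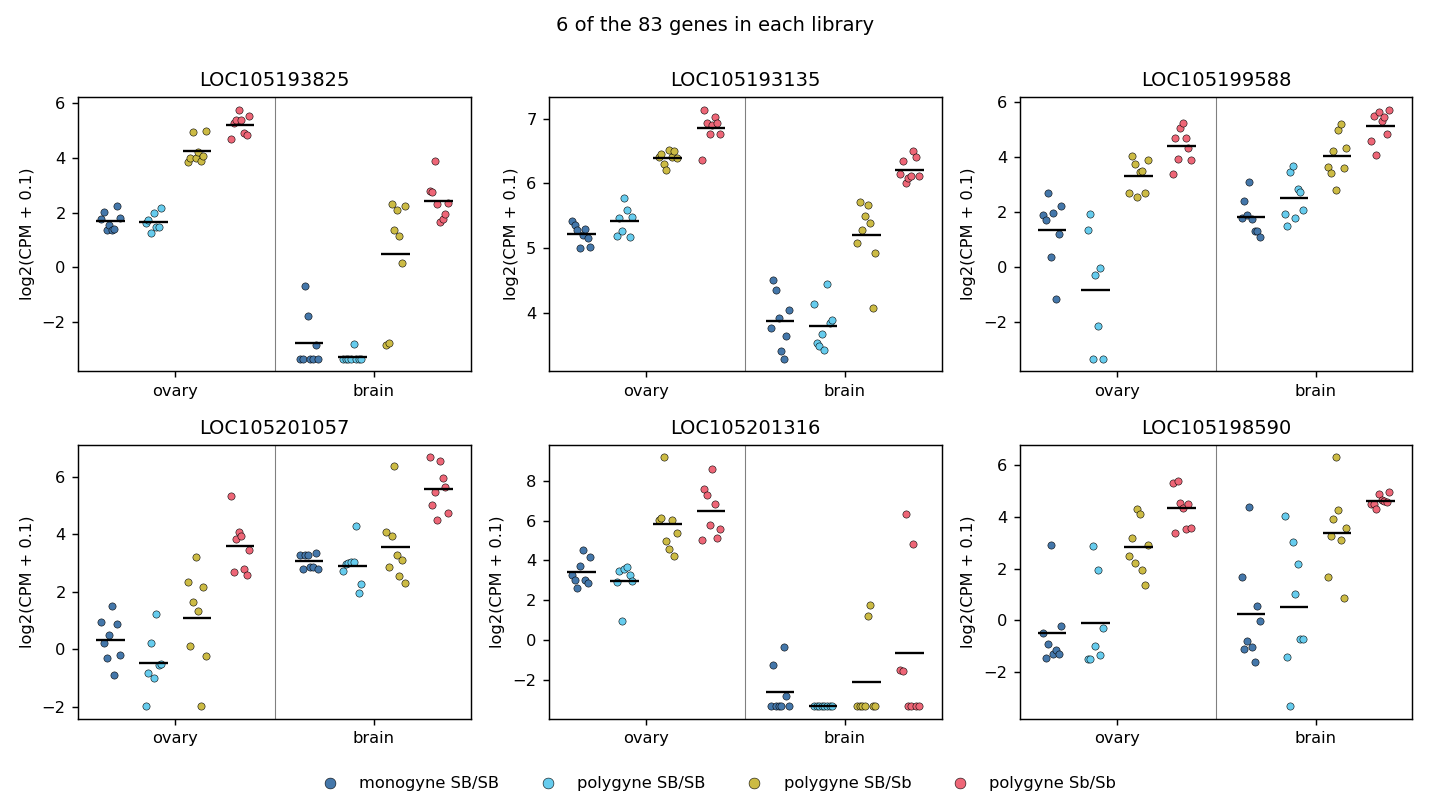
Levels of 6 of the 83 genes in each library as log2(CPM + 0.1), with 31 ovaries on the left and 32 brains on the right of each panel, coloured by group, and a line at the group mean. LOC105193825 and LOC105193135 separate Sb/Sb from SB/SB in both tissues, while LOC105201316 is near 0 in most brains and LOC105198590 has single high SB/SB libraries.

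Of the 6 genes with the highest ovary ratio, edgeR did not call LOC105198590, LOC105198876 and LOC105198878 against polygyne SB/SB in the brain, and LOC105201316 was not tested. LOC105198590 ranged from 0 to 20.9 CPM in SB/SB brains (median 0.702), from 1.73 to 79.8 CPM in SB/Sb (median 10.7) and from 19.7 to 30.9 CPM in Sb/Sb (median 24.1). Its groups overlapped through monogyne brain 232A, whose ovary was also the highest of its group, and the adjusted p was 0.136 (log2 2.60 ± 0.91 SE, edgeR); it was called against both SB/SB forms, and by DESeq2 against polygyne SB/SB (adjusted p = 0.0357). LOC105201316, LOC105198876 and LOC105198878 on chromosome 15 were low in most brains and highest in Sb/Sb brain 15G. LOC105201316 was left out by the low-count filter: it had no count in 13 of 16 SB/SB brains and in 4 of 8 Sb/Sb brains, and stood at 80.2 CPM in 15G. DESeq2 called it higher in Sb/Sb (adjusted p = 7.12e-09), as did edgeR with no filter (adjusted p = 0.0351). The gene had no count in the 8 polygyne SB/SB brains, and Sb/Sb brains other than 15G averaged 4.11 CPM. Those calls are therefore a description. LOC105198876 ranged from 0 to 7.09 CPM in SB/SB (median 2.98) and from 0.0820 to 38.7 CPM in Sb/Sb (median 2.72), and LOC105198878 from 0 to 3.34 CPM (median 0.455) and from 0 to 12.6 CPM (median 1.24).

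Other genes raised in Sb/Sb ovaries had brain levels that did not follow. LOC105194996, the most abundant in the ovary, averaged 1172 CPM in polygyne SB/SB and 1309 CPM in Sb/Sb brains (log2 0.16 ± 0.23 SE, adjusted p = 0.757, edgeR). LOC105197020 averaged 77.4 and 64.8 CPM (log2 -0.20 ± 0.21 SE, adjusted p = 0.64, edgeR). In 7 of the 66 genes the fitted brain log2 change was below -1, and edgeR called none of these. DESeq2 called LOC105194586 (log2 -1.56, adjusted p = 0.019) and LOC105201654 (log2 -1.10, adjusted p = 0.0437) lower.

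**Figure D5:**
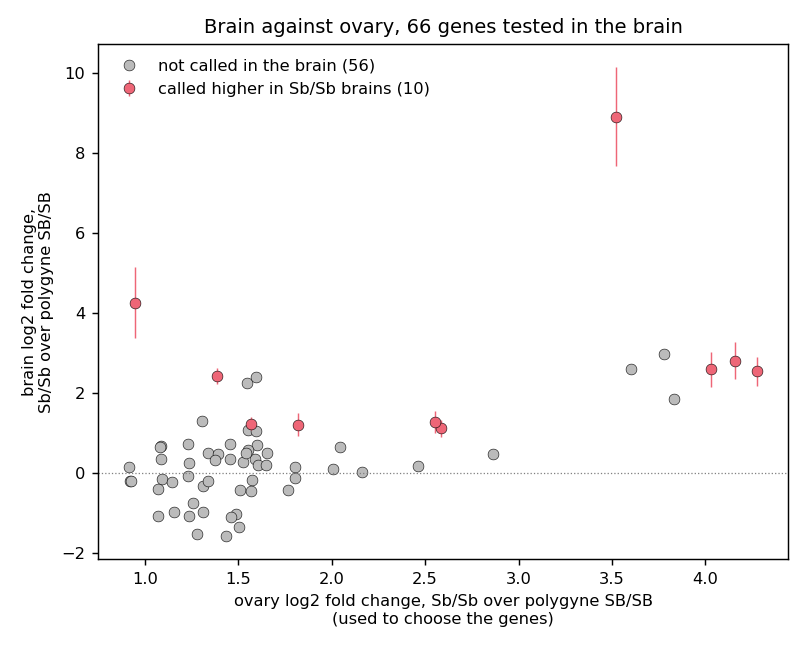
Log2 fold change of Sb/Sb over polygyne SB/SB in the brain against that in the ovary, from edgeR, for the 66 genes tested in the brain; bars show the standard error of the 10 called genes. The ovary axis was used to choose the genes. The top point is LOC105193825, whose fitted brain value depends on the prior count because it had 1 count over the polygyne SB/SB brains.

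By place, 5 of the 14 tested members on chromosome 16 were called higher in Sb/Sb brains, 2 of the 40 on chromosomes 1 to 15 and 3 of the 12 unplaced. The median brain log2 change was 1.19, 0.12 and 0.54 in these sets. LOC105193825, among the 5 called on chromosome 16, and LOC105198878, among the 40, passed the low-count filter only through brains with Sb. The counts and medians by place include them. Among all genes tested in the brain, 3.56% on chromosome 16, 0.248% on chromosomes 1 to 15 and 1.09% of unplaced genes were called higher, with median log2 changes of -0.0037, -0.02 and -0.07. The difference between the sets of members was not tested.

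In 8 of the 80 members with a count in these brains (10%), all 8 Sb/Sb brains lay above all 16 SB/SB brains. This held for 0.292% of the 13686 genes with a count in the brain. They were LOC105193135, LOC105193825, LOC105199289, LOC105199588, LOC105199589, LOC105201057, LOC105201251 and LOC105206832, of which LOC105201251 was too low for the edgeR filter. In SB/SB brains LOC105201251 averaged 0 CPM and LOC105193825 0.05 CPM, so for these genes the separation is a description. With a mean of at least 1 CPM required in SB/SB brains, 6 genes remained, and no share over all genes is given at that limit. In no member were all Sb/Sb brains below all SB/SB brains, but no share over all genes is given for that direction, so nothing is read from it.

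In SB/Sb brains edgeR called 3 of 66 members higher than in polygyne SB/SB brains, LOC105193135, LOC105193825 and LOC105199588, beside 0.252% of all genes. Without the 2 genes that passed the filter only through Sb brains, the count was 2 of 64. The median log2 change was 0.18, with 42 of the 66 above 0 (63.6%, against 49.3% of all genes). Between the social forms, polygyne SB/SB against monogyne SB/SB brains, edgeR called none of the 66, beside 0.00934% of all genes higher, and 16 of 66 (24.2%) had an unadjusted p under 0.05, against 18.4% of all genes. DESeq2 called 1 lower, beside 0.387% of its genes, and none higher. Of the 66, 41 were above 0 (62.1%, against 53.4% of all genes). The mean shift of the 83 genes was -0.27 to 0.46 in SB/SB brains, -0.23 to 0.56 in SB/Sb and 0.38 to 0.73 in Sb/Sb. The groups overlapped through polygyne SB/SB brain 1E at 0.46, and SB/Sb brain 30A was the lowest of its group.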

How the data were processed

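The authors deposited raw counts per gene, 1 file for each of 64 libraries, with no normalization. Per the submitters' processing notes, the tools were Trimmomatic 0.32, STAR 2.5.3a and featureCounts; the genome build, annotation and strand setting are not given in the sources used here, so no coordinates are printed. Per the labels' protocols, brain and ovary RNA was extracted with different kits, and Smart-seq2 uses no molecular identifiers, so intervals cover counting error only. The members and the named lists were chosen with earlier results of these data known. From the counts, CPM was computed on library totals. Each tissue was fitted in edgeR 4.0.16 (R 4.3.3; TMM, filterByExpr at a minimum count of 10, 4 group coefficients, quasi-likelihood F-tests, Benjamini-Hochberg over all genes tested) on 32 brains and 31 ovaries, with calls at an adjusted p under 0.05. The script was tested on simulated data. Standard errors (SE) are the log2 change divided by the root of F. Genes were named by rank of ratio, level, gap, brain p and place of SB/Sb, and as those nearest the limits of the choice; complete lists of called or separated genes were named after their values were seen. Alternatives were DESeq2 1.42.0, RLE factors, no filter, only the compared groups, title numbers as a block and libraries left out. Functional classes were not used, since the gene table gave no product names, and no sequences were used.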

Additional observations from a re-analysis of the deposited data

Results flagged for a closer look

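For the 6 genes with the highest ovary ratio and the called genes with the smallest brain p, the highest and lowest library of each group were compared with the rest. In 22 of 88 groups examined, the distance of a library from its nearest neighbour, relative to the range of its group, exceeded a set limit. The limit was 0.526 of the range for 8 libraries and 0.568 for 7. Chance passes it in about 1 group in 20 only when the values are normally distributed. The CPM values were compared without a log, and some groups held libraries with no count. That rate need not hold here, so the 22 groups are a description and not an excess over chance. The groups are not independent, since the genes were measured in the same libraries.

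On chromosome 15, SB/Sb ovary 15A stood at 582 CPM for LOC105201316 (45.4 CPM on average in the other 7), at 172 CPM for LOC105198876 (12.3 CPM) and at 92.0 CPM for LOC105198878 (8.95 CPM). Sb/Sb ovary 19G stood at 387 CPM for LOC105201316 (89.6 CPM in the others) and 102 CPM for LOC105198876 (18.5 CPM). Sb/Sb brain 15G stood at 80.2 CPM for LOC105201316, 38.7 CPM for LOC105198876 and 12.6 CPM for LOC105198878, where the other Sb/Sb brains averaged 4.11, 2.64 and 1.24 CPM. The same brain stood at 14.5 CPM for LOC105193825 on chromosome 16, against 4.79 CPM in the others.

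For LOC105198590 animal 232A, a monogyne SB/SB gyne, stood apart in both tissues, at 7.38 CPM in the ovary (0.435 CPM in the others) and 20.9 CPM in the brain (0.972 CPM in the others). SB/Sb brain 16C stood at 79.8 CPM for that gene (9.86 CPM in the others) and at 82.9 CPM for LOC105201057 (9.73 CPM). Polygyne SB/SB animal 1E stood apart in both tissues for LOC105201057, at 2.26 CPM in the ovary (0.548 CPM in the others) and 19.4 CPM in the brain (6.71 CPM). Brains 16C and 1E are among those that correlated least with the other brains. Sb/Sb ovary 104G stood at 39.96 CPM for LOC105201057, against 10.9 CPM in the others.

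The remaining values were small in most cases. Polygyne SB/SB ovary 107E stood at 3.73 CPM for LOC105198878 (1.11 CPM in the others). For LOC105199589 monogyne ovary 222A stood at 6.66 CPM (1.85 CPM) and Sb/Sb ovary 19G at 47.7 CPM (22.4 CPM). In monogyne brains LOC105201316 stood at 0.691 CPM in 235A (0.0516 CPM in the others) and LOC105193825 at 0.519 CPM in 222A (0.0338 CPM). The single count of LOC105193825 in the polygyne SB/SB brains came from 19D, at 0.0450 CPM, against 0 in the other 7.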

How the results depend on the processing

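The count of 83 genes fell to 36 with a minimum of 5 CPM. It was 64 with TMM-scaled CPM (61 of the 83 among them), 85 with ovary 104D kept (80), 108 against polygyne SB/SB ovaries alone (79) and 100 with a ratio limit of 1.5 (83). DESeq2 called 19 members in either direction for Sb/Sb against polygyne SB/SB brains (10 by edgeR), 8 for SB/Sb against SB/SB brains (3 by edgeR), 3 for Sb/Sb against SB/Sb brains (1), 1 for the social forms in the brain (0), 7 for Sb/Sb against SB/Sb ovaries (0) and 2 for the social forms in the ovary (0). With only the compared groups in the fit, SB/Sb against SB/SB gave 1 call in the brain and 23 in the ovary (50 with all groups), and the social forms gave 2 in the ovary. Fewer samples enter those fits. No share over all genes is given for the DESeq2 counts of 8 and 3, or for the 1 and 2 calls with only the compared groups. The counts that follow have none either, so all of these only show how the calls moved with the processing. Leaving out 1 brain in turn gave 9 to 13 calls for Sb/Sb against polygyne SB/SB. These include 1 member called lower without brain 104D and 1 without brain 107E. Without brains 1E, 16C, 16D and 30A, 13 were called higher, the same 10 among them. Leaving out ovary 15A, chosen after seeing the data, gave 34 calls for SB/Sb against SB/SB, all among the 50. The block was the number in the sample titles, in polygyne libraries only. Between same-number libraries the median r was 0.0586 in the brain and 0.247 in the ovary, against -0.00986 and -0.0179 in other pairs. The r was over 0.1 in 9 of 22 brain pairs and 15 of 20 ovary pairs. Same-number ovaries thus tended to deviate together, though not in every pair. The labels give the numbers no meaning, so the main fits have no block and their p-values leave any such pairing out. With the block, 12 members were called higher in Sb/Sb brains and 24 in SB/Sb ovaries, of which 23 were among the 50; without the block the same libraries gave 10 and 38. LOC105207180 lost its brain call with only the compared groups (adjusted p = 0.0602, edgeR). No result changed direction under the alternatives run. Depth limits the 17 members left untested in the brain, and lower levels there were not detectable.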
